A study of Mus musculus with 2 samples.

Results

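Nuclei that carried astrocyte transcripts were described in a single-nucleus RNA data set of mouse cerebral cortex. A barcode was counted when at most 5% of its UMIs (unique molecular identifiers, 1 per captured RNA molecule) came from mitochondrial genes. It also needed at least 1 UMI of at least 4 of 8 markers, Slc1a3, Gpc5, Acsbg1, Slc4a4, Bmpr1b, Mertk, Prdm16 and Gli2. At most 1 of 6 genes of other cells, St18, Mog, Flt1, Csf1r, Slc17a7 and Gad2, could have a UMI. The members were thus chosen by their own transcript values, so the levels of these 14 genes are given as a description only. The rule took 989 of 17501 barcodes.

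Astrocytes are the glia that clear glutamate and potassium from the space around synapses, store glycogen, supply lipids and wrap vessels with endfeet. Within the cortex they differ by depth, and those under the pial surface carry more intermediate filament protein than those of the grey matter. After injury they can turn on sets of genes that are grouped as reactive.

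The study set the cortex of old against that of young mice. All animals were untreated wild-type C57BL/6 mice. The old sample is labelled as 18 months old and the young one as 2 months old, while the series text has ranges of 18 to 22 and 2 to 3 months. Each sample was a pool of 3 mice, so single animals cannot be told apart. Nuclei came from frozen tissue and were loaded on the 10x Genomics droplet platform. Both samples were deposited as 1 matrix whose barcodes end in 1 or 2, called library 1 and library 2 here. No label ties an ending to an age. Values are therefore given by library, with no age, no test and no replicate check, and every interval covers counting error only.

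The members were 482 of 8914 barcodes in library 1 (5.41%, exact 95% Clopper-Pearson interval 4.95 to 5.90) and 507 of 8587 in library 2 (5.90%, 5.41 to 6.42). They had medians of 2777 and 3147 UMIs and of 1615 and 1709 detected genes. The 15870 other barcodes within the mitochondrial limit had medians of 6333 and 6726 UMIs. Over all barcodes the libraries held 58108297 and 60547146 UMIs. Of the barcode sequences, 19 occurred in both libraries, and 0 were members in both. No doublet caller was run.

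The members just inside and just outside the rule differed in what they carried. The 104 and 131 members with exactly 4 markers had Slc1a2, the main glutamate transporter of astrocytes, at 959.6 and 977 CPM (the summed nuclei scaled to a total of 1000000 UMIs). The 322 and 669 barcodes with exactly 3 markers and at most 1 gene of other cells had it at 427 and 547 CPM. The 138 and 226 barcodes that had at least 4 markers but more than 1 gene of other cells had it at 1933 and 1531 CPM. Among the rule's own genes, Slc1a3, the other astrocyte glutamate transporter, stood at 1389 and 1280.2 CPM in the members, against 48.1 and 65.0 in the other barcodes. Slc17a7, the vesicular glutamate transporter of excitatory neurons and a barred gene, still stood at 225 and 159 CPM in the members, against 295 and 188 CPM in the other barcodes.

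The label held for most of the members by number and for 48.4% of their UMIs. Clustering of the 989 nuclei gave 9 subclusters, numbered from 0. A subcluster was set apart when most markers of another class stood at 0.5 or more of their level in that class outside the members. Subclusters 2 and 6, with 155 and 33 nuclei, met this for 10 of 10 neuron markers. Subcluster 5, with 48 nuclei, met it for 5 of 6 fibroblast markers. Subcluster 7, with 20 nuclei, met it for 8 of 8 markers of oligodendrocyte precursors, and subcluster 8, with 11 nuclei, for 7 of 8 microglial markers.

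These 5 subclusters held 110 and 157 nuclei, with medians of 7302 and 8585 UMIs, and 51.6% of all UMIs of the members. The other 722 nuclei, 372 in library 1 and 350 in library 2, are called the retained nuclei below. They include subcluster 4, which missed that limit over both libraries but carried ependymal markers in library 1, as given with it below. They had medians of 2590.5 and 2887.5 UMIs and held 54.0% and 44.0% of the members' UMIs. Since the clustering used 2000 variable genes of these same counts and the split was made after the clusters were seen, it supports no test. Levels are given for the retained nuclei first, then for all members, then for the other barcodes. Intervals of the retained nuclei treat each UMI as independent, although UMIs of 1 nucleus share their source.

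The split was made by markers of other classes, so the levels of those markers describe it and are no check on it. The 10 neuron markers took 0.997% and 0.932% of UMIs in the retained nuclei and 2.39% and 2.54% in the nuclei set apart, against 2.78% and 2.75% in the other barcodes. All 10 were detected in the retained nuclei of each library. The 8 endothelial markers summed to 55.2 and 125 CPM in the retained nuclei, against 169 and 382 CPM in the other barcodes. The 8 microglial markers summed to 91.6 and 115 CPM, against 94.4 and 133 CPM. Other lists lay above the other barcodes. The 8 markers of oligodendrocyte precursors summed to 79.8 and 127 CPM, against 69.5 and 71.6 CPM, and to 3328 and 2698 CPM in precursor nuclei themselves. The 7 pericyte and smooth muscle markers summed to 91.6 and 157 CPM, against 52.9 and 96.1 CPM, and the 7 ependymal markers to 209.9 and 152 CPM, against 62.0 and 45.8 CPM. Transcripts listed as markers of other cells were thus present in the retained nuclei. Their source and their part in the results below were not tested.

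**Figure D1:**
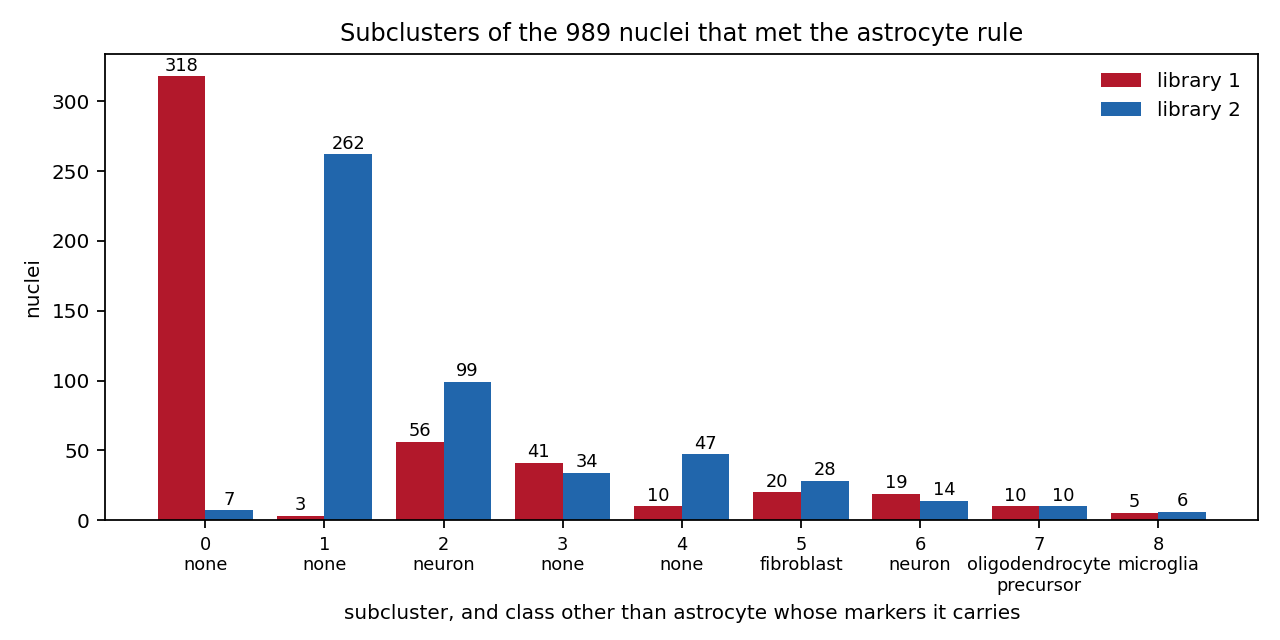
Number of nuclei (vertical axis) in each of 9 subclusters (horizontal axis) by library, with the other class whose markers a subcluster carried over both libraries together. Subcluster 0 held 318 nuclei of library 1 and 7 of library 2, and subcluster 1 held 3 and 262.

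Of 28 astrocyte identity genes that the rule did not use, all 28 stood at 2-fold or more over the other barcodes in both libraries in the retained nuclei, and 27 of 28 did over all members. Slc1a2, at chr2:102658659-102790784 in the build mm10, stood at 7481 and 8079.6 CPM in the retained nuclei and 4567 and 4303 CPM in all members, against 432 and 639 CPM in the other barcodes. Gja1, the gene of the gap junction protein connexin 43 at chr10:56377330-56402513, stood at 328 and 379 CPM in the retained nuclei and 202 and 205 CPM in all members, against 13.0 and 19.9 CPM. The retained nuclei were 25.3 and 19.1 times as high for Gja1. For each of the 28 genes the values lay in the same order, with the retained nuclei above all members and these above the other barcodes.

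Plpp3, a lipid phosphate phosphatase, had 1075 and 1210.1 CPM in the retained nuclei, against 32.8 and 40.0 CPM in the other barcodes. Apoe, which carries lipid out of the cell, had 1759 and 2696 CPM, against 118 and 186 CPM. The identity genes took 1.87% and 1.97% of UMIs in the retained nuclei and 1.17% and 1.06% in all members, against 0.119% and 0.154% in the other barcodes.

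After thinning each nucleus to 1500 UMIs, Slc1a2 had a UMI in 99.2% and 99.1% of retained nuclei, against 45.2% and 58.7% of excitatory neuron nuclei. Gja1 had one in 34.2% and 41.3%, against 1.54% and 2.35%. Before thinning, 190 and 222 of the 372 and 350 retained nuclei had a Gja1 UMI. Thinning left out 6 and 1 retained nuclei and 35 and 34 of the excitatory neuron nuclei, whose medians before thinning were 7522.5 and 7921 UMIs. Excitatory neurons lack Gja1 by textbook knowledge, and their share of it is read as background.

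**Figure D2:**
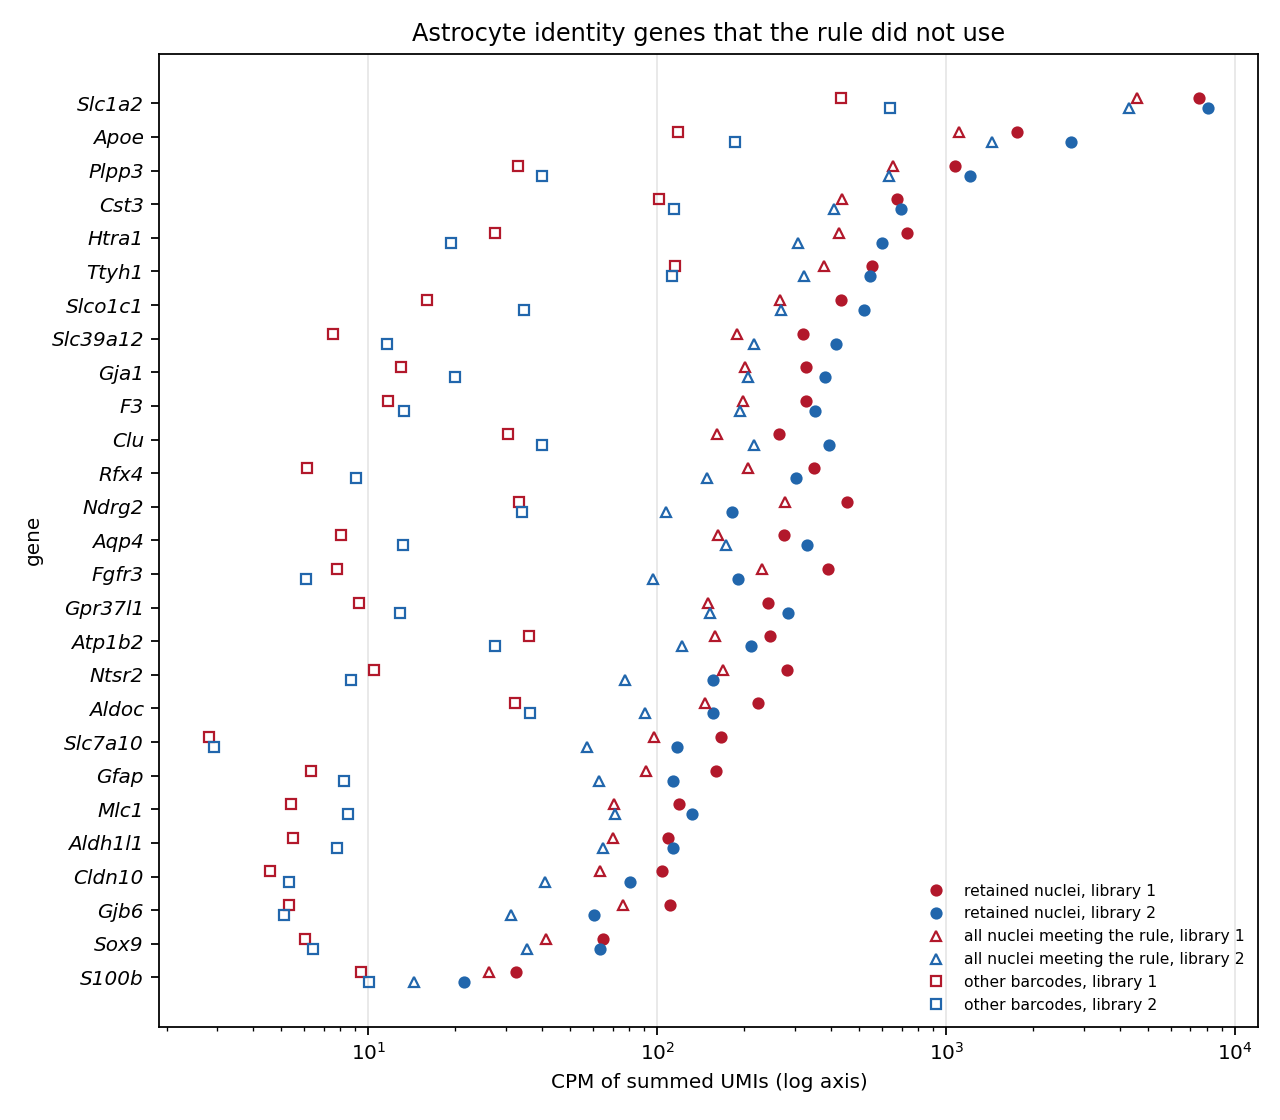
CPM of summed UMIs on a log axis (horizontal) for 27 of the 28 astrocyte identity genes (vertical), by library, in the retained nuclei, in all nuclei that met the rule and in the other barcodes. Within each gene and library the retained nuclei lie furthest to the right and the other barcodes furthest to the left. Levels of different genes are not compared.

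The fold over other barcodes was next taken for 20 gene lists. Of the 111797880 UMIs of those barcodes, 65683724 were in excitatory neuron nuclei and 2745052 in oligodendrocyte nuclei. A fold over them is thus mostly a fold over neurons, and does not show whether other glia share a gene. Of 10407 genes measured in the retained nuclei, 16.0% stood at 2-fold or more above the other barcodes in library 1 and 19.1% in library 2, and 12.6% and 10.4% at 2-fold or more below. Of 12189 genes measured over all members, 11.7% and 9.7% stood above, and 3.48% and 1.44% below. In the retained nuclei 13.1% of genes stood above in both libraries, and the median log2 ratio over all genes was 0.17 and 0.29. These are the shares against which the lists are read. The lists were chosen with earlier results of these data known, and several hold genes picked because astrocytes make them.

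**Figure D3:**
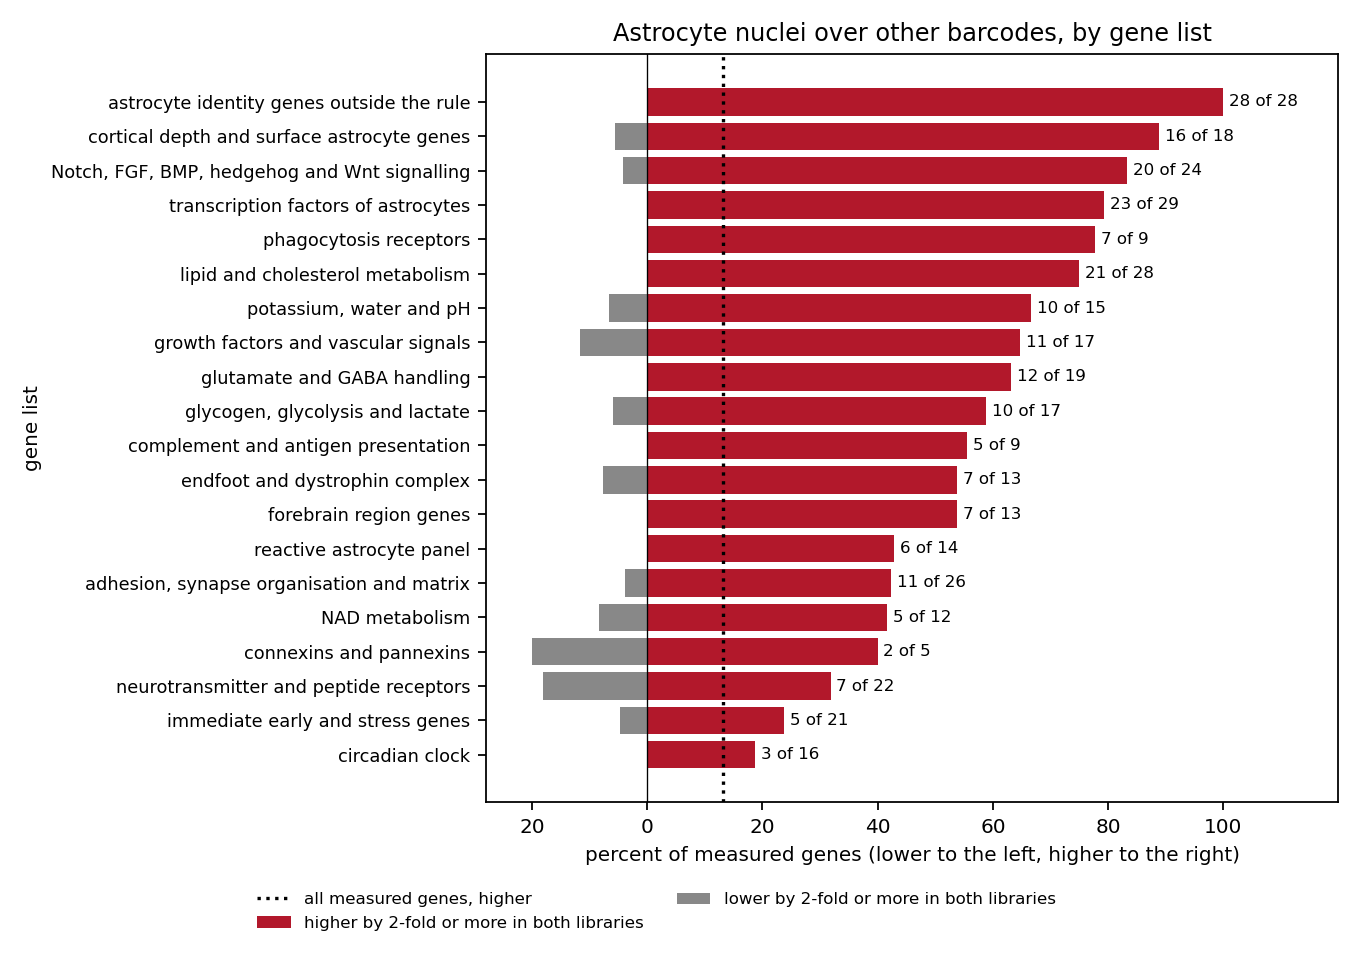
Percent of the measured genes of each list (horizontal axis) that stood at 2-fold or more above (right) or below (left) the other barcodes in both libraries, in the retained nuclei, for 20 lists (vertical axis). The dotted line marks all measured genes at 13.1%. The identity list reaches 28 of 28 and the clock list 3 of 16.

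In the list of glutamate and GABA handling, 12 of 19 measured genes stood above in both libraries in the retained nuclei, with a median log2 ratio of 2.99 and 2.90. Glul, the enzyme that makes glutamine from glutamate, had 582 and 463 CPM in the retained nuclei, against 66.3 and 61.3 CPM in the other barcodes. Glud1, which oxidises glutamate, had 402 and 353 CPM, against 50.7 and 47.2 CPM. Slc6a11, the GABA transporter GAT3, had 316 and 262 CPM, against 17.6 and 18.7 CPM. Slc7a11, the cystine and glutamate exchanger, had 305 and 430.4 CPM, against 22.1 and 28.3 CPM. These transport and enzyme genes were thus higher in the retained nuclei than in the other barcodes in both libraries.

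In the list of potassium, water and pH genes, 10 of 15 stood above in both libraries, with a median log2 ratio of 1.58 and 1.98. Aqp4, the water channel of endfeet, had 275 and 331 CPM in the retained nuclei, against 8.01 and 13.1 CPM in the other barcodes. Kcnj10, an inward rectifier channel, had 82.8 and 96.9 CPM, against 7.43 and 9.82 CPM. Kcnma1, a calcium-activated potassium channel, was lower at 858 and 770.4 CPM, against 1991 and 2094 CPM. Of the endfoot and dystrophin complex, 7 of 13 genes stood above. Dtna, which encodes dystrobrevin alpha, had 1659.5 and 1728 CPM, against 310.3 and 307 CPM, and Lama2, a laminin chain, 798 and 709.9 CPM, against 42.8 and 38.4 CPM. Dmd, the dystrophin gene, had 1206 and 1235 CPM, against 1414 and 1563 CPM, and so did not stand above.

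Of 5 measured connexins and pannexins, 2 stood above in both libraries, Gja1 and Gjb6. Gjb6, the gene of connexin 30, had 110.4 and 60.6 CPM in the retained nuclei and 76.2 and 31.1 CPM in all members, against 5.32 and 5.11 CPM in the other barcodes. Its UMIs numbered 112 and 65 in the retained nuclei. Gjd3 had 0 UMIs in the members of both libraries. Panx1 had 4 and 3 UMIs in the retained nuclei, too few for a level.

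Receptor genes were divided. In the list of neurotransmitter and peptide receptors 7 of 22 stood above in both libraries and 4 stood below, namely Grm5, Gria1, Cacna1c and Ryr3, with a median log2 ratio of 0.24 and 0.21. Grm3, a metabotropic glutamate receptor, had 1321 and 2088 CPM in the retained nuclei, against 286 and 320.3 CPM in the other barcodes. Grin2c, an NMDA receptor subunit, had 334 and 186 CPM, against 3.69 and 3.37 CPM, a fold of 90.6 and 55.3. Gabrb1, a GABA receptor subunit, had 3737 and 3085 CPM, against 1021 and 963 CPM. Grm5, another metabotropic receptor, lay lower, at 601 and 728 CPM, against 2152 and 2202 CPM. Gria1, an AMPA receptor subunit, also lay lower, at 565 and 445 CPM, against 1581 and 1597 CPM. Gria2, another AMPA receptor subunit, had 1555 and 1450.5 CPM, against 1480.1 and 1474 CPM, close to the other barcodes in both libraries.

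Metabolic lists stood above the share over all genes. Of the lipid and cholesterol genes 21 of 28 stood above in both libraries in the retained nuclei, and 17 of 29 over all members. Acsl3, which activates fatty acids, had 841 and 603 CPM, against 52.1 and 57.3 CPM. Abca1, the cholesterol exporter, had 172 and 189 CPM, against 17.4 and 20.5 CPM. Of the glycogen, glycolysis and lactate genes 10 of 17 stood above. Pygb, a glycogen phosphorylase, had 262 and 241 CPM, against 50.7 and 45.9 CPM. Hk1, the hexokinase of many cells, had 79.8 and 73.6 CPM, against 72.4 and 65.4 CPM, and the monocarboxylate transporter gene Slc16a7 lay below at 42.4 and 56.8 CPM, against 142 and 149 CPM. The glycogen phosphorylase was thus above and the hexokinase was close to the other barcodes.

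Of the NAD metabolism genes 5 of 12 measured members stood above in both libraries. Nadk, the cytosolic NAD kinase, had 93.6 and 68.9 CPM, against 42.2 and 28.6 CPM, and Nadk2, the mitochondrial one, 61.1 and 72.7 CPM, against 15.4 and 14.7 CPM. Nampt, the salvage enzyme, had 15.8 and 27.0 CPM in the retained nuclei, against 24.2 and 22.7 CPM in the other barcodes, with 16 and 29 UMIs. Qprt, Bst1, Kynu and Haao had 0 UMIs in the members of both libraries. The salvage enzyme did not stand above, and the NAD kinases did.

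Of the adhesion, synapse and matrix genes 11 of 26 stood above in both libraries. Lsamp, an adhesion protein of neurons and glia, had 16723 and 16623 CPM in the retained nuclei, against 6425 and 7029 CPM. Sparcl1, a secreted protein that promotes synapses, had 1077 and 1259.5 CPM, against 139 and 158 CPM. Tnr, a tenascin of perineuronal matrix, lay lower at 151 and 225 CPM, against 775 and 878 CPM. Of 9 measured genes on the list of phagocytosis receptors, which also holds genes that are not receptors, 7 stood above. Megf10, by which astrocytes take up synapses, had 237 and 182 CPM, against 14.2 and 9.27 CPM.

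Of 29 transcription factors of astrocytes 23 stood above in both libraries, with a median log2 ratio of 2.94 and 2.93. Rfx4 had 348 and 302 CPM, against 6.14 and 9.08 CPM in the other barcodes, and Gli3, a hedgehog pathway factor, 462 and 469.5 CPM, against 15.3 and 14.5 CPM. Nfia, a factor needed to make astrocytes, had 1897 and 2121 CPM, against 248 and 284 CPM. Sox9 had 65.0 and 63.3 CPM, against 6.05 and 6.43 CPM. Of the Notch, FGF, BMP, hedgehog and Wnt genes 20 of 24 stood above. Fgfr3, an FGF receptor, had 389 and 190.0 CPM, against 7.75 and 6.10 CPM. Nrg3, the neuregulin that neurons make, lay below at 1607 and 1807 CPM, against 5456 and 6603 CPM.

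Of 13 measured forebrain region genes 7 stood above in both libraries. Emx2, a factor of the dorsal forebrain, had 36.5 and 38.2 CPM in the retained nuclei, against 2.25 and 2.10 CPM, and Lhx2, another factor of the dorsal forebrain, 64.1 and 46.6 CPM, against 23.6 and 15.8 CPM. Mfge8, which marks telencephalic astrocytes, had 146 and 179 CPM, against 7.64 and 10.5 CPM. Of the growth factors and vascular signals 11 of 17 stood above. Vegfa, the endothelial growth factor, had 229 and 144 CPM, against 24.0 and 13.1 CPM.

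Among the 25 genes with the highest fold over other barcodes in the retained nuclei, 5 were genes of the rule. Pdzph1 stood at 104 and 93.2 CPM, against 1.45 and 0.758 CPM, a fold of 71.9 and 123. Atp13a4, a transport ATPase, stood at 245 and 142 CPM, against 2.89 and 2.10 CPM. Gldc, the glycine cleavage enzyme, stood at 249 and 259 CPM, against 4.56 and 5.22 CPM, and Phkg1, a phosphorylase kinase subunit, at 295 and 302 CPM, against 5.25 and 6.56 CPM. The amino acid transporter Slc7a10 stood at 166 and 117 CPM, against 2.81 and 2.91 CPM. The lowest fold among these named genes was that of Slc7a10 in library 2, at 40.4.

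The nuclei also varied among themselves. Subcluster 3 held 75 nuclei, 41 in library 1 and 34 in library 2, or 8.51% and 6.71% of members. It was the only retained subcluster other than subcluster 4 with at least 10 nuclei of each library. Its leading genes were Myoc, Gfap, Disp3, Aqp4, Adamts9, Id3, Tnc, Slc38a1, Grin3a and Igfbp5. Gfap encodes the glial intermediate filament protein and Myoc encodes myocilin, and both were listed as genes of surface astrocytes. Of 18 measured genes of cortical depth and surface, 16 stood above the other barcodes in both libraries in the retained nuclei. That count covers all retained nuclei and does not describe subcluster 3, where Mfge8 of the same list was lower, as given below. Since the clusters were drawn from these same counts, the levels describe the subcluster and support no test.

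Myoc, at chr1:162639155-162649693, stood at 675 and 775 CPM in subcluster 3 (80 and 79 UMIs), against 2.34 and 2.48 CPM in subclusters 0 and 1 together. Gfap, at chr11:102887336-102900912, stood at 885 and 707 CPM (105 and 72 UMIs), against 65.6 and 39.7 CPM. Aqp4 stood at 1189 and 1325 CPM, against 159 and 237 CPM, and Id3, a target of BMP signalling, at 329 and 167 CPM, against 35.1 and 29.7 CPM. In both libraries the subcluster lay above the rest of the retained nuclei for these genes. Of the retained nuclei, 24 and 22 had a Myoc UMI, and 22 and 20 of these were in subcluster 3.

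Other genes were lower there. Slc7a10 had 0 UMIs in subcluster 3 in both libraries, against 192 and 146 CPM in subclusters 0 and 1. Mfge8 had 33.7 and 29.4 CPM, against 165 and 202 CPM, and Grm3 632 and 962 CPM, against 1465 and 2579 CPM. Slc1a2 had 7842 and 8412 CPM, against 7657 and 8782 CPM, and Gja1 481 and 461 CPM, against 313 and 383 CPM. Slc1a2 was thus at a like level inside and outside the subcluster, Gja1 was somewhat higher inside, and the amino acid transporter was absent from the counts there.

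**Figure D4:**
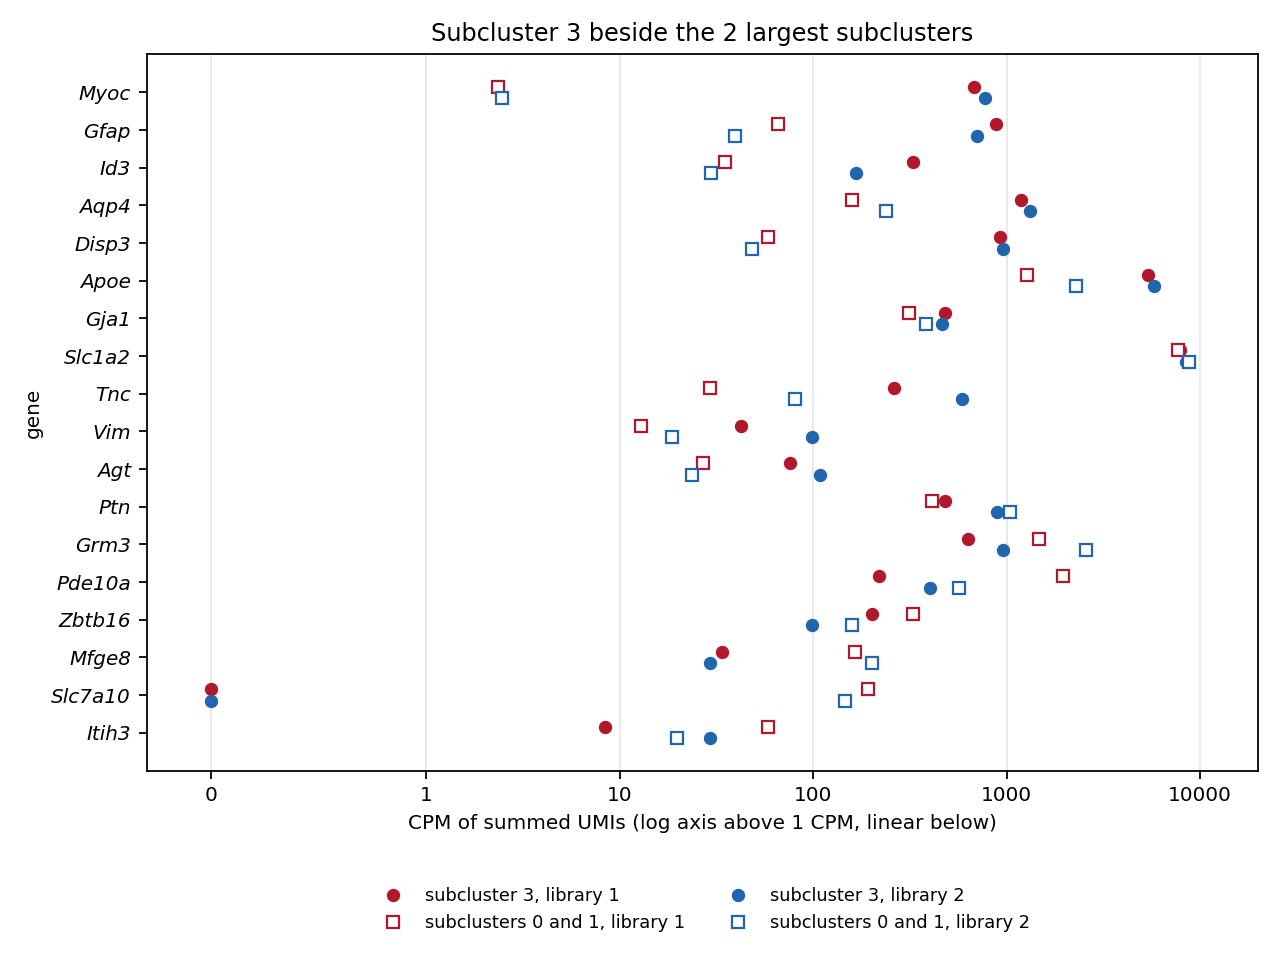
CPM of summed UMIs (horizontal axis, log above 1 CPM) of 18 genes (vertical axis) in subcluster 3 and in subclusters 0 and 1 together, by library. Myoc, Gfap, Aqp4 and Id3 lie further right in subcluster 3 in both libraries, Slc7a10 lies at 0 there, and Slc1a2 lies at about the same place in both.

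Subclusters 0 and 1 held most retained nuclei and split by library. Subcluster 0 had 318 nuclei of library 1 and 7 of library 2, and subcluster 1 had 3 and 262. A subcluster that is nearly all of 1 library may be that library and not a kind of cell, and the sets cannot be told apart from the libraries. Subcluster 0 was led by Etnppl, a lyase of phosphoethanolamine, with 246 CPM against 35.0 CPM in the other members. Cbs, the first enzyme of transsulfuration, had 187 CPM, against 30.4 CPM. Subcluster 1 was led by Hsd11b1, the enzyme that activates glucocorticoids, with 65.3 CPM, against 11.6 CPM. Wdr17 had 1908 CPM there, against 424 CPM, and Gpam, an enzyme of triglyceride synthesis, 236 CPM, against 53.1 CPM. These genes return below as differences between the libraries.

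Subcluster 4 held 57 nuclei, 10 in library 1 and 47 in library 2, and stays unnamed. Its leading genes Dnah12 and Ttr were on the list of 7 ependymal markers used here. In library 1 all 7 ependymal markers were detected in it and summed to 2799 CPM, against 2766 CPM in ependymal barcodes. Ttr alone made up 1708 of these 2799 CPM, from 4 of 10 nuclei, so the sum does not name the nuclei. In library 2 all 7 were detected as well and summed to 625 CPM, against 2986 CPM. Over both libraries together 0 of the 7 reached 0.5 of its level in ependymal barcodes, so the subcluster was not set apart. The leading genes differed in how many nuclei carried them. Adgrv1, an adhesion receptor, had a UMI in 8 of 10 and 18 of 47 nuclei, and Spag16, an axoneme protein, in 6 and 11. All 244 Hpse2 UMIs of the retained nuclei came from 4 nuclei of library 2, all in subcluster 4. Hpse2 encodes heparanase 2. Htr2c, a serotonin receptor, had 232 and 65 UMIs there, from 3 and 5 nuclei, and Dnah12, an axonemal dynein, had 19 and 42 UMIs from 2 and 3 nuclei. None of the 4 Hpse2 nuclei had a Dnah12 UMI. Slc1a2 stood at 2894 and 4437 CPM in subcluster 4, against 7657 and 8782 CPM in subclusters 0 and 1.

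The level in library 1 was next set over that in library 2. The rule did not use this ratio, but with 1 library on each side there is no replicate check, and age, pool, batch and library cannot be told apart. Where an interval is set against the bare ratio in the other barcodes, the error of that ratio is left out. Such a comparison is a description and no test. Of 9888 genes with at least 20 UMIs in the retained nuclei, 5.35% stood at 2-fold or more above in library 1 and 3.92% in library 2. Over all members these shares were 6.7% and 4.45% of 11954 genes. The median log2 ratio was 0.08 in the retained nuclei and 0.18 over all members, so the single ratios over all members are read relative to that shift. The 2-fold share in either direction was 9.27% in the retained nuclei, 9.69% in oligodendrocyte precursors, 9.04% in microglia, 12.3% in oligodendrocytes and 17.0% in excitatory neurons, which differ in their UMIs and so in the genes that could be measured. The astrocyte share lay within the range of the other classes.

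**Figure D5:**
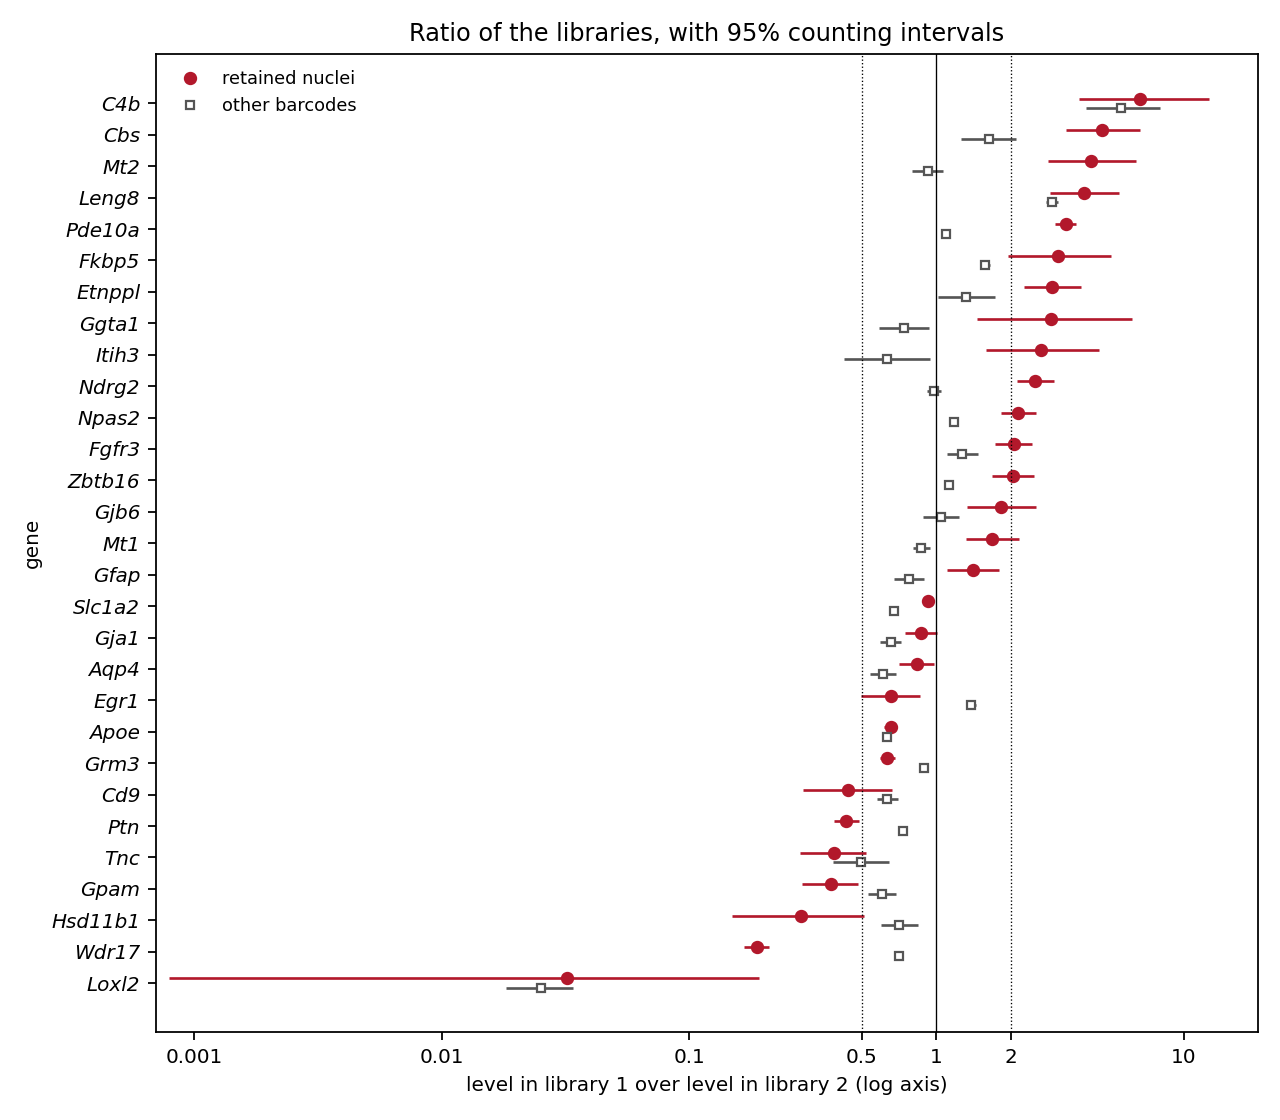
Level in library 1 over level in library 2 (horizontal log axis) with 95% counting intervals for 29 genes (vertical axis), in the retained nuclei and in the other barcodes. Cbs, Mt2, Pde10a and Ndrg2 lie right of 2 in the retained nuclei and left of 2 in the other barcodes, Wdr17 lies left of 0.5 in the retained nuclei and right of it in the others, and C4b, Leng8 and Loxl2 lie on the same side in both.

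Of the 28 identity genes, 2 stood at 2-fold or more in library 1 in the retained nuclei and 0 in library 2. Over all genes 5.35% and 3.92% did, so the count for library 1 is near that share. Ndrg2, at chr14:51905271-51914158, had 452 and 181 CPM and 459 and 194 UMIs, a ratio of 2.50 (95% interval 2.11 to 2.98). Its ratio was 0.979 in the other barcodes and 2.68 (95% interval 1.50 to 5.05) within subcluster 3. Fgfr3 had a ratio of 2.05 (95% interval 1.73 to 2.44), and 1.27 in the other barcodes. Gjb6 had 1.82 (95% interval 1.33 to 2.51), and 1.04 in the other barcodes. Slc1a2 at 0.926 (95% interval 0.898 to 0.955) and Gja1 at 0.866 (95% interval 0.747 to 1.00) were close to 1. The main transporter and connexin 43 were thus near equal in the libraries, and Ndrg2, Fgfr3 and connexin 30 were higher in library 1.

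The enzyme genes Cbs and Etnppl stood higher in library 1. Cbs, at chr17:31608894-31637238, had 186 and 40.1 CPM in the retained nuclei, from 138 and 39 nuclei, a ratio of 4.65 (95% interval 3.32 to 6.64). In the other barcodes it had 2.92 and 1.80 CPM and a ratio of 1.63. Within subcluster 3 its ratio was 4.12 (95% interval 1.54 to 13.8). Etnppl had a ratio of 2.94 (95% interval 2.26 to 3.84), and 1.32 in the other barcodes. Slc27a1, a fatty acid transporter, had 2.00 (95% interval 1.62 to 2.48), and 1.41 in the other barcodes. For Cbs and Etnppl the interval of the retained nuclei lay wholly above the ratio in the other barcodes.

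Of 13 reactive panel genes with enough UMIs in the retained nuclei, 4 stood at 2-fold or more in library 1, namely Osmr, Aspg, Ggta1 and Fkbp5, and Cp and Tm4sf1 did in library 2. Over all genes 5.35% and 3.92% did. Gfap had 159.6 and 114 CPM, a ratio of 1.40 (95% interval 1.10 to 1.79), and Vim, another intermediate filament gene, had 16 and 30 UMIs and a ratio of 0.564 (95% interval 0.287 to 1.07). Ggta1, a galactosyltransferase, had 33 and 12 UMIs and a ratio of 2.91 (95% interval 1.46 to 6.19), and 0.740 in the other barcodes. Aspg, an asparaginase, had 24 and 1 UMIs and a ratio of 25.4 (95% interval 4.14 to 1044), and 6.49 in the other barcodes. Osmr, the oncostatin receptor, had 17 and 5 UMIs and a ratio of 3.60 (95% interval 1.27 to 12.5). Lcn2 and Timp1 had 0 UMIs in the members of both libraries, which allows up to 2.96 CPM in the retained nuclei of library 1 at 3 counts. Serpina3n had 5 and 5 UMIs. The interval of Vim included 1, and the panel held genes past 2-fold in each direction.

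C4b, a complement component at chr17:34728380-34743882, had 86.7 and 13.0 CPM in the retained nuclei, from 68 and 14 nuclei, and 56.5 and 6.56 CPM in all members. Its ratio was 6.65 (95% interval 3.76 to 12.7) in the retained nuclei and 8.61 (95% interval 5.06 to 15.6) over all members. The other barcodes had 4.14 and 0.740 CPM and a ratio of 5.59, and oligodendrocytes had 46.1 and 0.774 CPM. Within subcluster 3 the ratio was 4.73 (95% interval 1.96 to 13.8), with 33 and 6 UMIs, and in subclusters 0 and 1 together it was 16.7 (95% interval 5.41 to 83.5), with 53 and 3 UMIs. After thinning to 1500 UMIs, 13.1% and 2.01% of retained nuclei had a C4b UMI, against 0.423% and 0.0255% of excitatory neuron nuclei. The higher level in library 1 was therefore shared by astrocyte and oligodendrocyte nuclei. Reads that C4b shares with its near-identical neighbour C4a cannot be told apart, so its level is uncertain. C3, the central complement component, had 1 and 0 UMIs.

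Metallothioneins bind zinc and copper, and their genes lie side by side on chromosome 8. Mt2, at chr8:94172664-94173568, had 125 and 29.8 CPM in the retained nuclei, with 127 and 32 UMIs in 86 and 28 nuclei, a ratio of 4.20 (95% interval 2.83 to 6.40). In the other barcodes it had 6.74 and 7.32 CPM and a ratio of 0.921. Mt1, at chr8:94179082-94180327, had 172 and 102 CPM and a ratio of 1.68 (95% interval 1.32 to 2.16), and 0.869 in the other barcodes. Mt3, the metallothionein of brain, had 88.7 and 57.8 CPM and a ratio of 1.54 (95% interval 1.10 to 2.16), and 1.10 in the other barcodes. Within subcluster 3 the Mt2 ratio was 2.49 (95% interval 1.18 to 5.73). All 3 were higher in library 1, and the ratio was larger for Mt2 than for Mt1 and Mt3. Their promoters are shown because Mt1 and Mt2 are known to answer to metal through short metal response elements, whose core was searched as TGCGCNC and TGCACNC on both strands. The 250 bases before each start follow, 5′ to 3′ on the plus strand from RefSeq in the build GRCm38.p6, with matches in capitals.
Mt1 chr8:94178839-94179088: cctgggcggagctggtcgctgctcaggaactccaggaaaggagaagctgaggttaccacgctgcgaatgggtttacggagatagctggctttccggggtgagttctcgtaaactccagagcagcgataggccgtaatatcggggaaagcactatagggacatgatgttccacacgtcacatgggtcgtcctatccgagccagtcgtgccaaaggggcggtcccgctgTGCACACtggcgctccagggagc
Mt2 chr8:94172368-94172617: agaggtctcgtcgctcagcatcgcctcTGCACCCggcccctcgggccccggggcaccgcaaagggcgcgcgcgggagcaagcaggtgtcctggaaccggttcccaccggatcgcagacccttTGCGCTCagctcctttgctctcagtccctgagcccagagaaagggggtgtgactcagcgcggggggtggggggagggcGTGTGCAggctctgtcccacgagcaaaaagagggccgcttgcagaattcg
Mt3 chr8:94152357-94152606: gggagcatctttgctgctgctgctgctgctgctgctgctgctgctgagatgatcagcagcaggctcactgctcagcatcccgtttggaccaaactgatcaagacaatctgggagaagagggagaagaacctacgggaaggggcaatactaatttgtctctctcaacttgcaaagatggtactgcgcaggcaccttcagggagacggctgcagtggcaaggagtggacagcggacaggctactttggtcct
The Mt2 window held 3 matches, the Mt1 window 1 and the Mt3 window 0, with no overlap between matches. The windows follow RefSeq starts, which differ from the gene positions above. The Mt1 window runs past the first base of the Mt1 position, and the Mt2 window ends short of the Mt2 position. The counts therefore hold for these windows only and do not rank the promoters. Their bearing on the library ratios was not tested. Of 32851 such windows in the table, 21.4% held at least 1 match and 1.26% at least 3. A match is a string of letters and not a bound site, and a window with no match says nothing about the factor.

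In the list of immediate early and stress genes, Fkbp5, a co-chaperone of the glucocorticoid receptor, had 71.9 and 23.3 CPM in the retained nuclei and a ratio of 3.09 (95% interval 1.94 to 5.08), against 1.57 in the other barcodes. Zbtb16, a zinc finger factor, had 305 and 150.0 CPM and a ratio of 2.04 (95% interval 1.68 to 2.48), against 1.13. Over all members these ratios were 1.68 and 1.52, and both lost the 2-fold call. Sgk1, a kinase gene of the same list, had 1.29 (95% interval 0.873 to 1.91), which includes 1. Fkbp5 in microglia stood at 504 and 267 CPM and in oligodendrocytes at 138 and 56.5 CPM. Of 21 immediate early and stress genes measured, Mt2, Fkbp5, Zbtb16 and Egr3 stood at 2-fold or more in library 1. Jun, an immediate early factor, was the 1 that did in library 2, at 25 and 64 UMIs and 0.413 (95% interval 0.249 to 0.665). The shares over all genes were 5.35% in library 1 and 3.92% in library 2.

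Of 16 clock genes, 3 stood above the other barcodes in both libraries in the retained nuclei, a share of the list near that over all genes. Between the libraries Npas2 stood at 2-fold or more in library 1 and Cry1 in library 2. These counts are near the shares over all genes, 5.35% and 3.92%. Npas2, a partner of the core clock factor that can replace Clock, had 441 and 206 CPM and a ratio of 2.14 (95% interval 1.82 to 2.53), against 1.18 in the other barcodes and 1.54 over all members. Dbp, a clock output factor, had 0.625 (95% interval 0.410 to 0.943), and Per1, a clock repressor, 1.04 (95% interval 0.726 to 1.49), against 2.07 in the other barcodes. Per3 had 0 UMIs in the members and in the other barcodes, so it is only listed at 0.

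Pde10a, a phosphodiesterase gene of neurons, is at chr17:8525372-8986648 and stood at 1703 and 511 CPM in the retained nuclei, a ratio of 3.33 (95% interval 3.02 to 3.67). The other barcodes had 1614 and 1478 CPM and a ratio of 1.09. In subclusters 0 and 1 together its ratio was 3.44 (95% interval 3.10 to 3.82), and in subcluster 3 it was 0.545 (95% interval 0.320 to 0.912), the other direction. The level in library 1 was close to that of the other barcodes and the level in library 2 was below it. The part of free RNA in this was not tested.

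In library 2, Wdr17, at chr8:54629055-54887184, stood higher. It had 331 and 1762 CPM in the retained nuclei, from 198 and 329 nuclei, a ratio of 0.188 (95% interval 0.167 to 0.211). The other barcodes had 199 and 282 CPM and a ratio of 0.703. Within subcluster 3 the ratio was 0.217 (95% interval 0.152 to 0.305). After thinning, 33.9% and 84.0% of retained nuclei had a Wdr17 UMI, against 25.4% and 31.3% of excitatory neuron nuclei. The astrocyte nuclei of library 2 lay above those of library 1 in the large subclusters and in subcluster 3 alike.

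Some signalling and matrix genes also stood higher in library 2. Ptn, the growth factor pleiotrophin at chr6:36714929-36810220, had 408 and 944 CPM and a ratio of 0.432 (95% interval 0.385 to 0.485), against 0.729 in the other barcodes. Lgr4, a receptor that strengthens Wnt signals, had 0.449 (95% interval 0.361 to 0.556), against 0.884. Ednrb, the endothelin receptor, had 0.456 (95% interval 0.330 to 0.623), against 0.631. Tnc, tenascin C, had 0.385 (95% interval 0.281 to 0.520), against 0.496, and Ephb1, an ephrin receptor, 0.489 (95% interval 0.419 to 0.570), against 0.768. Cd9, a tetraspanin, had 0.441 (95% interval 0.288 to 0.661), against 0.632. For Ptn, Lgr4 and Ephb1 the interval lay wholly below the ratio in the other barcodes, and for Tnc and Cd9 it included that ratio. For Ednrb the upper bound of 0.623 lay so near 0.631 that the order is uncertain. In subcluster 3 the Ptn ratio was 0.538 (95% interval 0.380 to 0.758) and the Tnc ratio 0.444 (95% interval 0.278 to 0.696).

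Apoe and Grm3 stood lower in library 1, short of 2-fold, at 0.652 (95% interval 0.615 to 0.692) and 0.633 (95% interval 0.591 to 0.677). Their ratios in the other barcodes were 0.632 and 0.892. In subcluster 3 Apoe stood at 5372 and 5742 CPM, a ratio of 0.935 (95% interval 0.835 to 1.05). In subclusters 0 and 1 it stood at 1278 and 2288 CPM, and in subcluster 4 at 1352 and 2810.1 CPM, lower in library 1 in both.

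Loxl2, Leng8 and Gm21954 had a like ratio in the astrocyte nuclei and in the other barcodes. Loxl2, a lysyl oxidase, had 1 and 33 UMIs in the retained nuclei and a ratio of 0.0321 (95% interval 0.000788 to 0.191), and 0.0251 in the other barcodes. Leng8 had 3.94 (95% interval 2.87 to 5.49), and 2.94 in the others. The predicted protein-coding gene Gm21954 had 0.112 (95% interval 0.0434 to 0.244), and 0.133 in the others. The antisense RNA Pard3bos1 had 0 and 46 UMIs in the retained nuclei, and its ratio in the others is not reported here. For Loxl2, Leng8 and Gm21954 the interval of the retained nuclei included the ratio in the other barcodes. Gmnc, a factor of multiciliated cells, had 35 and 5 UMIs, from 5 and 1 nuclei, so its ratio of 7.40 rests on 1 nucleus of library 2. Hpse2, at chr19:42786539-43388355, had 0 and 244 UMIs, at least 76.9-fold higher in library 2 against a limit of 3 counts per library, yet 4 nuclei carried all of them.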

How the data were processed

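The deposited values are whole-number UMI counts, not normalized, aligned to mm10 per the submitters' processing notes. Those notes name Cell Ranger 2.0.1, Seurat 3.1 and R 4.0.2, whereas the file header names Cell Ranger 3.1.0, and this was not resolved. UMIs were summed over nuclei per library and scaled to a total of 1000000 (CPM). A fold was read as a call at 2-fold or more with at least 20 UMIs over both libraries. For the fold over other barcodes, genes with at least 20 UMIs expected from the level in those barcodes were measured as well. Intervals are exact Poisson, Clopper-Pearson or conditional binomial, at 95%, and treat UMIs as independent. The members were clustered with scanpy 1.11.5 on 2000 variable genes, 20 principal components and 15 neighbours, by the Leiden method at resolution 0.5. Nuclei were thinned to 1500 UMIs for shares. The members, lists and named genes were chosen with earlier results of these data known. Named genes were the 6 with the highest level per list and list genes at 0, list genes at 2-fold or more between the libraries, the 25 highest over other barcodes, up to 12 per direction between libraries and 10 leading genes per subcluster, with others named after their values were seen. Calls were tried on simulated sums with independent UMIs, which leave out that UMIs of 1 nucleus share their source and so cannot check that limit. Gene positions came from GENCODE and promoters from RefSeq. Single values of some list genes are not reported here.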

Additional observations from a re-analysis of the deposited data

Results flagged for a closer look

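The transcript 4933432K03Rik had 33 UMIs in the retained nuclei of library 1 and 12 in library 2, a ratio of 2.91 (95% interval 1.46 to 6.19). In the other barcodes it had 143 and 914 UMIs, a ratio of 0.161 (95% interval 0.134 to 0.192), so the libraries lay in opposite order. Over all members the ratio was 1.42. The difference between the nuclei and the other barcodes was not tested, since each library is a single sample.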

How the results depend on the processing

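Each library is 1 sample, so no replicate could be left out, and no limit below replaces one. No paired analysis was possible because each group had 1 library and no label ties a library to a group. The number of members, 482 in library 1 and 507 in library 2, became 804 and 1176 with at least 3 markers, 191 and 174 with 0 barred genes, and 142 and 163 with a mitochondrial limit of 1%. The genes at 2-fold or more over other barcodes, 1425 and 1182, fell to 878 and 635 with that limit and to 656 and 575 with at least 100 UMIs, and library 2 had 634 with at least 3 markers. Retaining the 722 nuclei gave 1992 in library 2. The genes higher in library 1, 801 over all members, became 497 with 0 barred genes, 480 after thinning, 137 with at least 100 UMIs, 491 when scaled by the median ratio and 529 in the retained nuclei. Those higher in library 2, 532, became 911 with at least 3 markers, 285 with 0 barred genes, 309 after thinning and 104 with at least 100 UMIs. Leaving out subcluster 4 too, chosen like the retained nuclei after seeing the data, left 303 nuclei in library 2, with 1811 genes over other barcodes and 313 higher in library 2. The causes were not tested. Of 550 levels, 446 moved beyond their counting interval in the retained nuclei, 207 of them up and 116 down by over 1.5 times. The number of UMIs per gene limits every ratio.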
